A study of Homo sapiens with 9 samples.

Results

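Among sites that carried both a ZNF395-eGFP and a MYC peak in 786-O cells, those at the start sites of 4 genes, RAN, CTPS1, PEMT and KLF16, stood near the head of both lists. The genes were chosen by the sum of the ranks of their peaks in the tagged 786-O list and in the MYC list, so those ranks describe the choice and are no evidence for it. Around the hg19 start sites given for the genes, all peaks of the 5 deposited lists with a base within 10 kb were collected, which gave 17 of 52875 peaks. They were 6 of 20034 peaks from ZNF395-eGFP 786-O, 7 of 20199 from MYC in 786-O, 4 of 7718 from ZNF395-eGFP A498, none of 3361 from parental 786-O and none of 1563 from parental A498.

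The lists come from ChIP-seq, in which an antibody pulls down crosslinked chromatin and regions enriched in the sequenced DNA are called as peaks. In 786-O and A498, both established lines of clear cell renal cell carcinoma, eGFP had been knocked in at ZNF395 with a guide and a donor plasmid and precipitated with a GFP antibody; the sources do not say whether the knock-in cells were a clone or a pool. Parental cells of both lines, without eGFP, were precipitated with the same antibody, and parental 786-O cells also with an antibody against MYC, so MYC was not measured in the tagged cells. The remaining 4 of the 9 samples are inputs. Titles and other label fields conflict: the cell line field of the A498-titled samples reads 786-O, and the target field of the MYC-titled one reads P300. A498 and MYC here go by the titles. Each group was 1 library, so no value has a replicate check and no test was possible. The lists hold no read counts, and the depth behind a peak is unknown.

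ZNF395 is a zinc finger protein studied as a transcriptional regulator in clear cell renal carcinoma. MYC binds DNA as a dimer with MAX, preferably at the E-box CACGTG, and is known for driving genes of growth, nucleotide synthesis and translation. RAN is the small GTPase whose GTP-bound form gives direction to transport through nuclear pores. CTPS1 is CTP synthase, which turns UTP into CTP, a precursor of nucleic acids and of phospholipids. PEMT is the enzyme that methylates phosphatidylethanolamine to phosphatidylcholine, the route that runs beside the CTP-dependent one. KLF16 is a zinc finger transcription factor of the Sp/KLF family, which binds GC-rich boxes.

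The start regions of the genes are shown because the main peaks of the genes lie on or close to the start sites. Not every main peak reached a span of the same size around the hg19 start site given for its gene. Neither ZNF395-eGFP peak at CTPS1 nor the A498 peak at KLF16 touched the 250 bases before to 50 after that site. Whether these peaks reach the sequences printed here was not examined. The sequences are from RefSeq in GRCh38.p14, 250 bases before to 50 bases after the start, 5′ to 3′ on the gene's strand. They lie at chr12:130871816-130872115 on the plus strand for RAN, chr1:40979446-40979745 on the plus strand for CTPS1, chr17:17591659-17591958 on the minus strand for PEMT and chr19:1863530-1863829 on the minus strand for KLF16. For CTPS1, with 2 entries, and PEMT, with 3, the most upstream entry was taken, and its start need not be the hg19 start site used for the peaks. Peaks are given in hg19 and were not converted, so these sequences were not aligned to them base by base, and exons and introns under the peaks were not analysed here. Capitals mark the E-box CACGTG and its variants, which are CACGCG and also CATGTG and CACGAG, on either strand.
RAN: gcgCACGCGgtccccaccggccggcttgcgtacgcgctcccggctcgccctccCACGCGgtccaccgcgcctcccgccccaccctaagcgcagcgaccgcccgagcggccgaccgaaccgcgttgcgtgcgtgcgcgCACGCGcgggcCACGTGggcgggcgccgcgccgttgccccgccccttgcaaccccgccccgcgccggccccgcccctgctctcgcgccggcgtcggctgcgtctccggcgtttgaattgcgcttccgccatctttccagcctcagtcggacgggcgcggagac
CTPS1: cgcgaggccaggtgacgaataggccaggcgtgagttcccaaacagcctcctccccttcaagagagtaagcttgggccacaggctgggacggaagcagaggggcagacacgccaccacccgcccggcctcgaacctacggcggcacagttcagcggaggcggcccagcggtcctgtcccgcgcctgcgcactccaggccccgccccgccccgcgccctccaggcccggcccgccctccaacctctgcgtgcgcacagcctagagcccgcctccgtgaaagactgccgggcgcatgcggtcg
PEMT: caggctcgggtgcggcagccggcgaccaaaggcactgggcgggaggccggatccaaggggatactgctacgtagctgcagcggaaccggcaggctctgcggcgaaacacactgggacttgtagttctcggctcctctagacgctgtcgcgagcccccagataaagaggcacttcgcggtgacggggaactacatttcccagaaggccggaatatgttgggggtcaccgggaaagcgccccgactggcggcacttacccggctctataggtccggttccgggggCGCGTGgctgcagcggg
KLF16: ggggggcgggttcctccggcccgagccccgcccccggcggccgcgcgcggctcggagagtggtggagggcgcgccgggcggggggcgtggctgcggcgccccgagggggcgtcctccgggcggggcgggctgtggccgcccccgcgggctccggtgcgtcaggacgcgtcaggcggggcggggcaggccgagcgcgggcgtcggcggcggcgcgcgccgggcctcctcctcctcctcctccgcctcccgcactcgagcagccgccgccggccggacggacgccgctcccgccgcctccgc

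RAN was the gene of the 4 with a CACGTG in this window, at -102 from the start, an element present in 7.26% of 35116 promoters of the table and in 8.34% of 22199 promoters of protein-coding genes. The RAN window also held 3 copies of CACGCG, at -247, -197 and -113, and PEMT had 1 copy of it at +34 on the opposite strand, whereas 14.3% of protein-coding promoters held at least 1. In CTPS1 and KLF16 none of these 4 motifs was found, and CATGTG and CACGAG, held by 8.93% and 7.37% of protein-coding promoters, were in none of the 4 windows.

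The GC box CCGCCC, the kind of element that Sp/KLF factors bind, was in all 4 windows, with 6 copies in RAN, 4 in CTPS1, 1 in PEMT and 7 in KLF16, and in 56.3% of protein-coding promoters. CTPS1 alone held the NRF1 core GCATGCG, once on each strand in overlapping copies at +39 and +40, against 4.63% of protein-coding promoters. The ETS core ACTTCCG, present in 8.62% of them, was in none of the 4. All motifs were searched on both strands. The RAN E-box at -102 shared 1 base with the GC box at -97, as did the GC boxes at -52 and -47 in CTPS1 and those at -133 and -128 in KLF16. GC content was 78.3% in RAN, 71.7% in CTPS1, 65.3% in PEMT and 86.0% in KLF16, above the median of 62.3% over protein-coding promoters, and 99.8% of those promoters had a lower GC content than KLF16. A match shows letters only, and a missing one says nothing about the factor.

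At RAN, all 3 peaks covered the start site. The tagged 786-O peak lay at chr12:131356017-131357273, was 1257 bp wide and had a score of 179.8. The deposited score was read here as a −log10 value and ranks peaks only within a list. The MYC peak spanned 1573 bp at chr12:131355951-131357523 with a score of 233.2, and the tagged A498 peak spanned 1049 bp at chr12:131356048-131357096 with a score of 77.2. Measured along the gene, the peaks reached from 407 bp upstream to 849 bp downstream of the start in tagged 786-O, from 473 bp upstream to 1099 bp downstream for MYC, and from 376 bp upstream to 672 bp downstream in tagged A498. Each peak lay wholly inside the next wider one, A498 within tagged 786-O within MYC.

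At CTPS1 the ZNF395-eGFP peaks lay downstream of the hg19 start site given for the gene rather than on it. Whether they cover the start used for the sequence above was not examined, because that start was not placed in hg19. In tagged 786-O the peak at chr1:41445196-41446213 (1018 bp, score 164.2) began 189 bp downstream and ended 1206 bp downstream. The MYC peak at chr1:41444894-41446429 (1536 bp, score 233.1) began 113 bp upstream and covered the start site. In tagged A498 the peak at chr1:41445288-41445995 (708 bp, score 25.6) began 281 bp downstream. Midpoints in the 3 lists were close to each other, at 697.5 bp downstream in tagged 786-O, 654.5 bp for MYC and 634.5 bp in tagged A498.

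At PEMT the peaks were the narrowest of the 4 genes in each of the 3 lists, and all covered the start site. The tagged 786-O peak at chr17:17494583-17495503 had a width of 921 bp and a score of 156.4, the MYC peak at chr17:17494521-17495476 a width of 956 bp and a score of 200.5, and the tagged A498 peak at chr17:17494909-17495441 a width of 533 bp and a score of 25.9. On the gene's strand the tagged 786-O midpoint was 49 bp upstream of the start, the MYC midpoint 4.5 bp upstream and the A498 midpoint 181 bp upstream. The tagged 786-O peak passed the upstream edge of the MYC peak by 27 bp, the one case of the 4 in which it did not lie wholly inside the MYC peak.

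KLF16 had the widest peaks of the 4 genes in both 786-O lists. In tagged 786-O the main peak at chr19:1862337-1864638 was 2302 bp wide with a score of 133.0, and the MYC peak at chr19:1862283-1865035 was 2753 bp wide with a score of 317.0. These reached 1074 bp and 1471 bp upstream of the start, and 1227 bp and 1281 bp downstream. The tagged A498 peak, at chr19:1862558-1863501 with a width of 944 bp and a score of 72.9, held only the downstream side: it ran from 63 bp to 1006 bp downstream of the start. Only 0.299% of tagged 786-O peaks and 0.0594% of MYC peaks were wider than those at KLF16. Width goes with the score that chose the gene, and among the upper 10% of each list by score the shares were 1.5% and 0.446%.

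**Figure D1:**
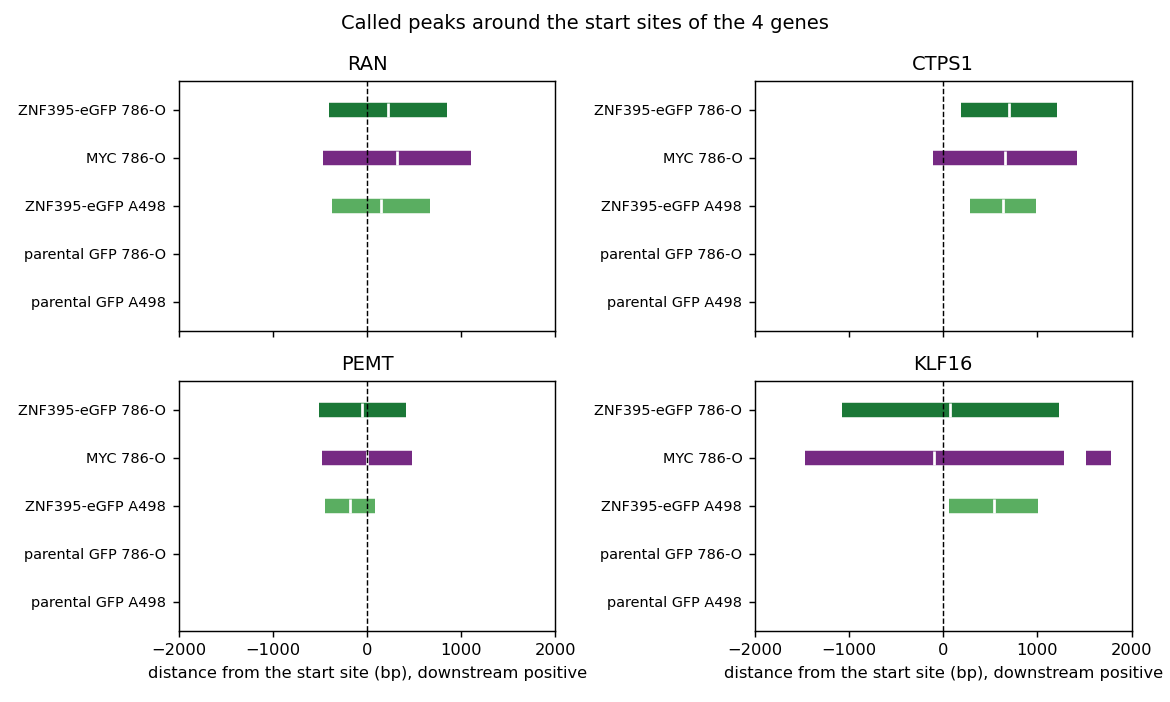
Peaks around the hg19 start sites (dashed line) given for RAN, CTPS1, PEMT and KLF16. Distance in bp along the gene's strand is on the horizontal axis, with 1 row for each of the 5 lists. White ticks are midpoints of the main peaks. Both ZNF395-eGFP peaks at CTPS1 begin downstream of the start, at 189 bp in 786-O and 281 bp in A498, the A498 peak at KLF16 begins 63 bp downstream, and the parental rows are empty.

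KLF16 was also the gene of the 4 with further peaks within 10 kb. In tagged 786-O weaker peaks had midpoints 6036.5 bp downstream (score 9.24, rank 12774) and 10054.5 bp downstream (score 8.62, rank 13367); only an edge of the farther one lay within 10 kb. The MYC list had weaker peaks at 1651.5, 6216.5 and 8135.5 bp downstream, with scores of 11.3, 8.81 and 17.3. The peaks near 6 kb overlapped between both lists, and the other 3 met no peak of any list. Tagged A498 had no further peak there, and its nearest other peak was 35.1 kb from the one at KLF16.

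Between 10 and 20 kb from KLF16 both 786-O lists had peaks about 12.5 kb upstream (tagged score 13.3, MYC score 39.7) and about 15 kb downstream. At the downstream place the tagged peak at chr19:1848001-1848826 (score 22.8) also met a parental 786-O peak at chr19:1848545-1848849, whose score of 2.78 ranked 3179 of 3361. Within 100 kb of the KLF16 start, counted by midpoint, lay 14 tagged 786-O, 16 MYC and 2 tagged A498 peaks, against 3, 2 and 2 at RAN, 2, 2 and 1 at CTPS1, and 4, 5 and 3 at PEMT. Peaks within 100 kb were not counted at other sites, so whether the numbers at KLF16 are unusual was not tested. The absence of another tagged 786-O peak within 10 kb of the main one, seen at the 3 genes other than KLF16, was shared by 59.0% of 17596 tagged-only peaks.

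**Figure D2:**
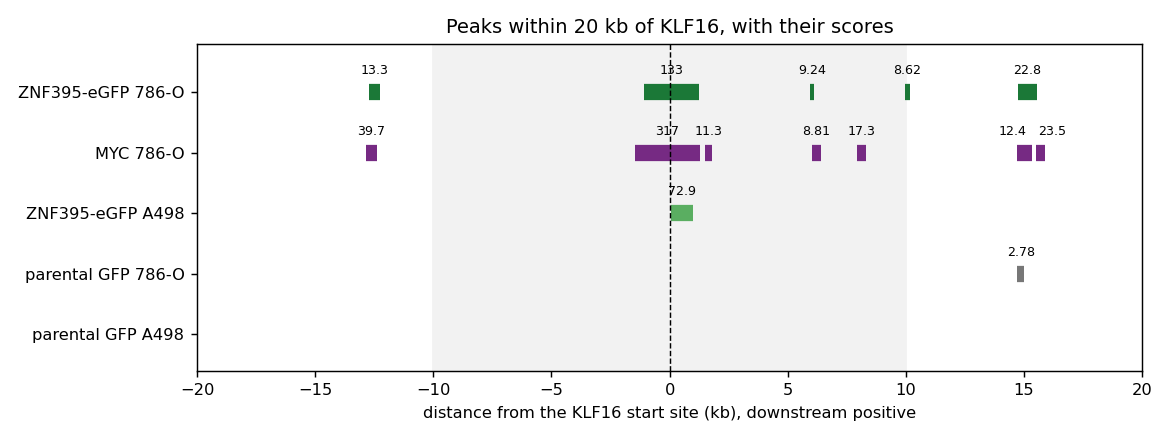
Peaks within 20 kb of the KLF16 start site (dashed line), with distance in kb along the gene's strand on the horizontal axis, 1 row for each list, the 10 kb window in grey and the score of each peak above it. The main peaks score 133.0 in tagged 786-O, 317.0 for MYC and 72.9 in tagged A498, the other tagged 786-O and MYC peaks score between 8.62 and 39.7, and the single parental peak scores 2.78.

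Around the other genes the nearest further peaks lay well apart, with distances measured between the nearest edges of the main peak and the further one. At RAN they were 32.1 kb upstream in tagged 786-O (chr12:131323328-131323949, score 23.7), 31.5 kb upstream for MYC (chr12:131323574-131324448, score 53.0) and 32.2 kb upstream in tagged A498 (chr12:131323600-131323851, score 4.13), and these 3 overlapped each other. Near CTPS1, tagged 786-O and MYC had overlapping peaks about 23 kb downstream, with scores of 3.79 and 43.5, while the nearest further A498 peak was 314.0 kb away. At PEMT, tagged 786-O (score 28.1) and tagged A498 (score 4.21) had overlapping peaks about 89 kb upstream, and a parental 786-O peak with a score of 4.87 overlapped both. The nearest further MYC peak at PEMT was elsewhere, 79.0 kb downstream, with a score of 26.7.

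Neither parental list had a peak within 10 kb of any of the 4 start sites. The members were chosen among tagged-only 786-O peaks, which are those without an overlapping parental 786-O peak, so the absence of a parental 786-O peak at the main peaks was set by the choice. Parental A498 was not used for it. Its nearest peaks were 1828 kb from the start of RAN, 3425 kb from CTPS1, 1470 kb from PEMT and 599.4 kb from KLF16. An overlap with parental A498 was found for 0.977% of all tagged-only 786-O peaks, so that 0 of 4 is close to what most tagged-only peaks show. Background below the calling threshold of the single parental library per line would not appear in these lists.

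In the joint order of the 10355 tagged-only peaks that overlapped a MYC peak, which were 58.8% of the 17596 tagged-only peaks, RAN held place 1, KLF16 place 2, CTPS1 place 3 and PEMT place 5. Their ranks in the tagged 786-O and MYC lists were 50 and 106 for RAN, 140 and 19 for KLF16, 71 and 108 for CTPS1, and 88 and 185 for PEMT. Place 4 belonged to a pair on chromosome 7, chr7:150759448-150760691, with ranks of 117 and 141, which is not among the 4 genes. Just outside, the pairs at chr7:150065284-150066716, chr17:42147831-42148544 and chr15:89164227-89165066 had rank sums of 280, 296 and 300, next to 273 for PEMT and 156 for RAN.

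High rank in both lists at once was counted among the 200 highest peaks of each list, out of 20034 tagged 786-O and 20199 MYC peaks. Of the tagged-only peaks, 152 stood among the 200 highest of the tagged 786-O list, and 129 of these overlapped a MYC peak of any rank. In 7 pairs both peaks were among the 200 highest of their lists, and 4 of the 7 are those of RAN, CTPS1, PEMT and KLF16. This count uses the values that chose the genes, and whether 7 is more or fewer than unrelated ranks would give was not tested.

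**Figure D3:**
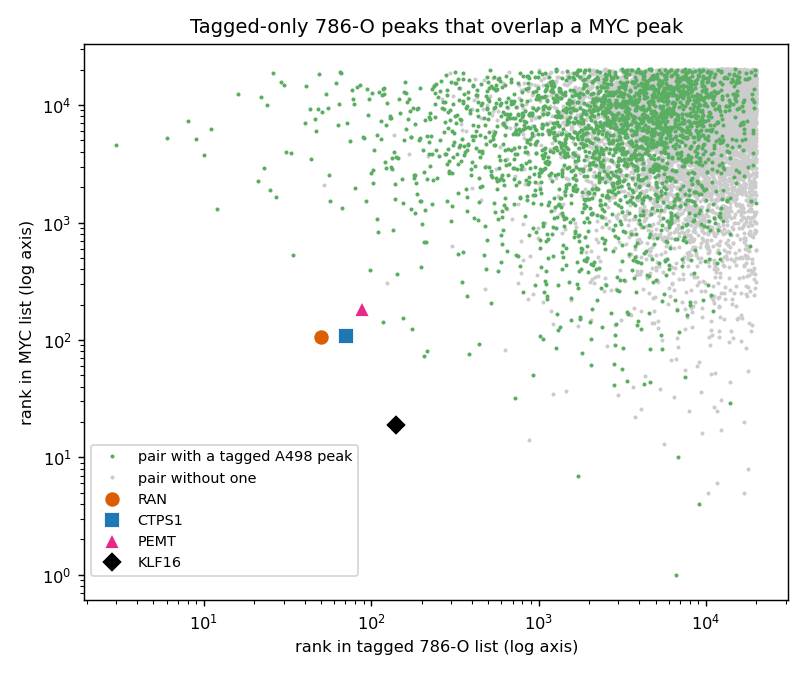
Rank in the tagged 786-O list (horizontal, log axis) against rank in the MYC list (vertical, log axis) for the 10355 tagged-only peaks that overlap a MYC peak, coloured by whether a tagged A498 peak overlaps them. RAN, CTPS1, PEMT and KLF16 lie in the thinly filled lower left, with tagged 786-O ranks from 50 to 140 and MYC ranks from 19 to 185.

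The order of the 4 genes differed between the lists. By score in tagged 786-O they ran RAN (179.8), CTPS1 (164.2), PEMT (156.4) and KLF16 (133.0), and for MYC they ran KLF16 (317.0), RAN (233.2), CTPS1 (233.1) and PEMT (200.5). RAN and CTPS1 were neighbours in the MYC list at ranks 106 and 108. Without replicates, whether any of these steps exceeds the spread between libraries cannot be said. All 4 peaks were within the upper 1% of both lists, which began at a score of 119.3 in tagged 786-O and 195.1 for MYC.

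In tagged A498, which took no part in the choice, the genes fell into a higher and a lower pair. RAN had rank 35 and KLF16 rank 41 of 7718, with 5 peaks between them, whereas PEMT had rank 301 and CTPS1 rank 313, with 11 peaks between them. Between KLF16 and PEMT stood 259 peaks. As shares of the A498 list these ranks are 0.453% for RAN, 0.531% for KLF16, 3.90% for PEMT and 4.06% for CTPS1. Among the 3018 A498 peaks that overlapped a tagged-only 786-O peak the places were 25, 28, 140 and 147. KLF16, the lowest of the 4 in tagged 786-O, was thus the second in tagged A498. Ranks from lists of different length and unknown depth cannot show whether binding differed between the lines.

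An A498 peak overlapped the tagged 786-O peak at 4 of the 4 genes. That held for 16.3% of all tagged-only 786-O peaks (exact Clopper-Pearson 95% interval 15.8 to 16.9, for counting error only). It held for 93.7% (89.0 to 96.8) of the 175 peaks in their upper 1% by score and for 82.0% (73.1 to 89.0) of the 100 best joint pairs. The 4 genes therefore show what most equally high peaks show. Among the 82 of those 100 pairs with an A498 peak, the median A498 rank was 821, with quartiles of 335 and 2065, and 40 pairs were within the upper 10% of the A498 list. All 4 genes ranked ahead of the quartile of 335. They are themselves among the 100 pairs and were chosen at higher tagged 786-O ranks than most of them, so this is a description only.

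**Figure D4:**
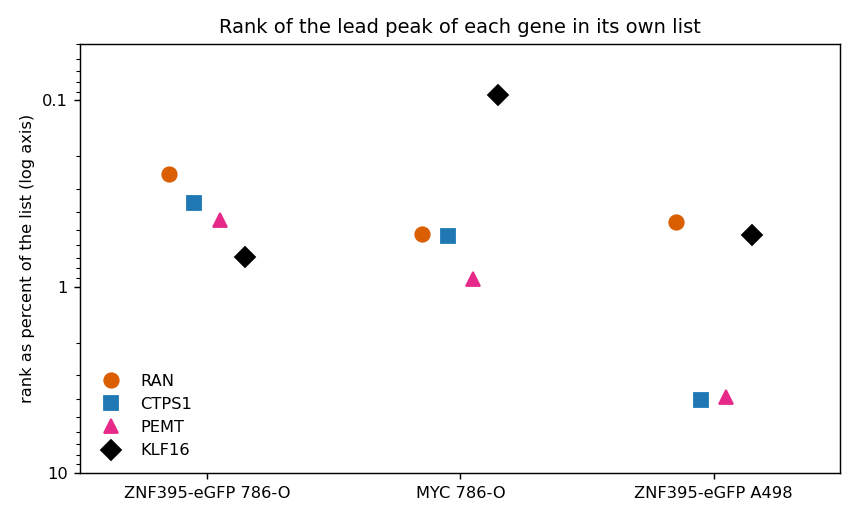
Rank of the main peak of each gene as a percent of its own list (vertical, log axis, higher ranks at the top) in ZNF395-eGFP 786-O, MYC 786-O and ZNF395-eGFP A498. All 12 points lie within the upper 5% of their list, KLF16 is highest for MYC at rank 19, and in A498 RAN (rank 35) and KLF16 (rank 41) stand apart from PEMT (rank 301) and CTPS1 (rank 313).

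Widths of the MYC peaks tend to go with the MYC ranks that chose the genes, and are given as a description. The tagged 786-O peak lay wholly inside the MYC peak at RAN, CTPS1 and KLF16. Such nesting was found in 28.1% (27.2 to 28.9) of all 10355 pairs and in 12.0% (7.27 to 18.3) of the 150 pairs in the upper 1% of tagged-only scores. The tagged peak was 0.799 times as wide as the MYC peak at RAN, 0.663 times at CTPS1, 0.963 times at PEMT and 0.836 times at KLF16. The median ratio was 0.960 over all pairs and 1.24 over the 1516 pairs in the upper 10% of tagged-only scores. MYC peaks were thus the wider ones at these genes, while among high tagged peaks in general they were more often the narrower. Those high tagged peaks were taken by tagged score alone, whereas the genes were chosen by MYC rank as well. MYC peaks were also the wider ones at places 6, 7, 8 and 9 of the joint order, and the narrower at places 4 and 10. The peaks shared 79.9% of their joint span at RAN, 66.3% at CTPS1, 90.9% at PEMT and 83.6% at KLF16, against a median of 56.9% over all pairs and 66.2% over those in the upper 10%, so CTPS1 was at the median of high tagged peaks.

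The A498 peak lay wholly inside the tagged 786-O peak at 4 of the 4 genes, as it did in 84.6% (83.2 to 85.9) of the 2874 pairs of a tagged-only 786-O and an A498 peak and in 93.9% (89.1 to 97.0) of the 164 such pairs in the upper 1%. Widths in tagged 786-O were 1.20 times those in A498 at RAN, 1.44 times at CTPS1, 1.73 times at PEMT and 2.44 times at KLF16, and the median over the 2874 pairs was 2.46. KLF16 was therefore at the usual ratio, and 8.46% of these pairs had a lower ratio than RAN, or 4.12% of the 1141 pairs in the upper 10% of tagged-only scores.

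The midpoints of the tagged 786-O and MYC peaks were 92 bp apart at RAN, 43 bp at CTPS1, 44.5 bp at PEMT and 171.5 bp at KLF16. All 4 were within 200 bp, as were 75.9% of all pairs, whose median distance was 102 bp with quartiles of 44 and 196 bp. The tagged midpoint lay upstream of the MYC midpoint at RAN and PEMT and downstream of it at CTPS1 and KLF16, so no common side was seen. Relative to the width of the tagged peak the distances were 7.32% at RAN, 4.22% at CTPS1, 4.83% at PEMT and 7.45% at KLF16, where the median was 18.4% over all pairs and 11.1% over those in the upper 10% of tagged-only scores.

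Between tagged 786-O and tagged A498 the midpoints were 73 bp apart at RAN, 63 bp at CTPS1, 132 bp at PEMT and 458 bp at KLF16, where the median over 2874 pairs was 92 bp. At KLF16 97.4% of pairs had a shorter distance, and 70.5% had a shorter one relative to the width of the 786-O peak. The A498 peak of KLF16 shared its downstream edge within 221 bp with the 786-O peak and ended 1137 bp short of its upstream edge. KLF16 was the gene whose A498 and 786-O peaks met neither a reciprocal overlap of 50% nor a midpoint distance of 200 bp, while the other 3 met both.

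**Figure D5:**
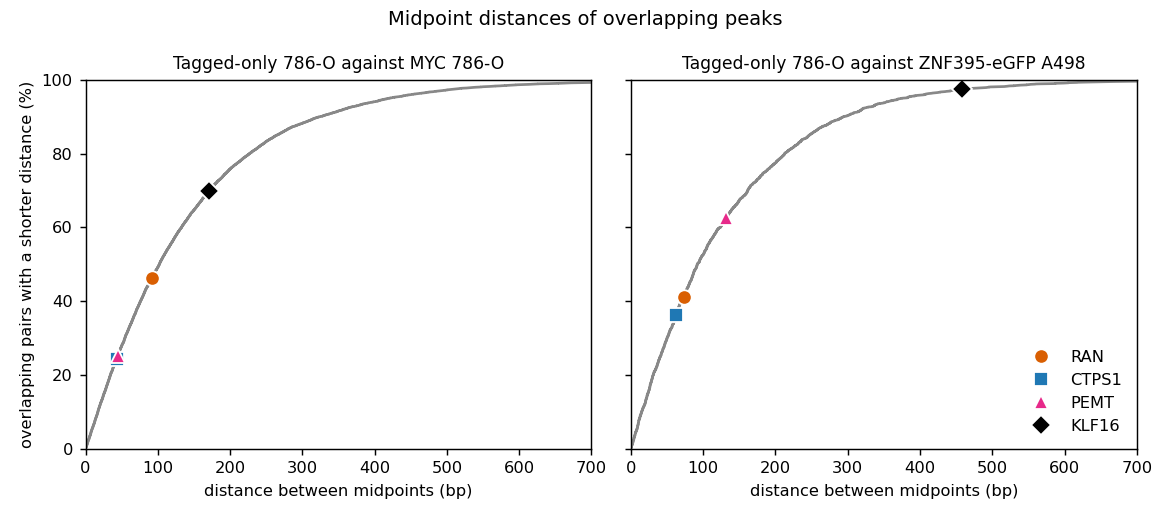
Distance between midpoints in bp (horizontal) against the percent of overlapping pairs with a shorter distance (vertical), for tagged-only 786-O peaks with MYC peaks (left, 10355 pairs) and with tagged A498 peaks (right, 2874 pairs); grey lines are all pairs. RAN, CTPS1 and PEMT lie within 132 bp in both panels, and KLF16 lies at 171.5 bp on the left and 458 bp on the right.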

How the data were processed

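Peak lists of 5 libraries were used. BWA, MACS2 and the hg19 build are named in the submitters' processing notes, without versions or settings. The deposited peak names give 1 control library for each list, which is common to MYC and parental 786-O. The deposited score of a peak was read as a −log10 value, because every list begins just above 2; the sources do not say whether it comes from a p or a q. It was used only to rank a list, with ties broken by width and position.

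The hg19 start sites were taken as given for the genes and may differ by 1 base through the way of counting. They were not matched to the starts of the GRCh38.p14 promoters. Starts are written 1-based. Peaks overlapped when they shared at least 1 bp; of several partners, the best-ranked gave the joint order and the nearest midpoint the distances. Shares over all peaks are a background, not a test. The genes, their lists and the alternatives were chosen with earlier results of these data known. Planned lists of related genes need an hg19 annotation and were not analysed here. Promoters and names come from RefSeq tables in GRCh38.p14, in which all 4 genes matched. Overlap rules were tested on simulated data. Computation used Python 3.11.15 with pandas 2.3.3 and numpy 2.4.6, intervals scipy 1.17.1, and plots matplotlib 3.10.9.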

Additional observations from a re-analysis of the deposited data

How the results depend on the processing

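Of 67 recomputed counts over the 4 genes, 61 stayed within 1.5 times the reported one and 6 did not. Many of these counts were largely set by the choice of the genes, so their stability is no check of the results. They include the genes with a tagged 786-O or MYC peak, the overlap of those peaks and the places among the best joint pairs. The number of MYC peaks at the genes was 4 with a window of 1 kb, against 7 within 10 kb, and that of parental 786-O peaks, and of genes with one, was 1 with a window of 20 kb, against 0; both come from the weak peaks around KLF16. When peaks were ordered by width instead of score, 1 gene, KLF16, was among the 10 best joint pairs at place 6, and RAN, CTPS1 and PEMT had places 219, 479 and 1293 of 10355. Under the other orders (product or worse of the ranks, no parental subtraction, 50% reciprocal overlap, chromosomes 1 to 22 and X) all 4 stayed among the 10 best, with PEMT at places 5 to 10. Genes with a peak in the upper 10% of widths numbered 1 in tagged 786-O and 2 in tagged A498 when only the upper 10% of scores served as background, against 2 and 4 over the full lists. The windows set by midpoint and the backgrounds of the upper 1% and of the 100 best pairs were added after the data were seen. No paired analysis was possible because each group is 1 library. Depth per peak is unknown, and no value has a replicate.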

Other observations

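Of the pairs that stood beside RAN, CTPS1, PEMT and KLF16 in the joint order of tagged-only 786-O and MYC peaks, the one at place 4, at chr7:150759448-150760691, had A498 rank 23, above those of the 4 genes. Places 6 to 9 had A498 ranks of 365, 459, 686 and 381, all below those of the 4 genes. Place 10, at chr13:76123278-76124203 with ranks of 124 in tagged 786-O and 306 for MYC, had no A498 peak. Places 11 to 15 had A498 ranks of 701, 70, 739, 4667 and 2, the last at chr16:4233133-4234893 beside ranks of 34 in tagged 786-O and 525 for MYC. No hg19 annotation was used here, so these places are given by position only.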
